A study of Gallus gallus with 20 samples.

Results

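A set of 39 genes was read at full level in 4 of 10 broiler chickens and at traces in the other 6. Its members were chosen by their own counts, among 24356 Ensembl gene IDs. Read counts of the 2 technical libraries of a bird were summed and divided by the bird's total, which gave CPM (counts scaled to a common bird total). A gene was a member where it had at least 0.2 CPM in each of birds A4, A6, A7 and D7, and where the lowest of these 4 was at least 5 times the highest of birds A3, A5, D2, D3, D4 and D5. The choice used exactly this contrast, so the contrast between the 4 birds and the other 6 is described below and not tested.

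The samples were pieces of mid-ileum, the last stretch of the small intestine, from broilers aged 35 days. Total RNA was depleted of ribosomal RNA and made into stranded Illumina libraries, 2 technical libraries per bird and 20 in all. Birds A3, A4, A5, A6 and A7 formed the control group and birds D2, D3, D4, D5 and D7 the avilamycin group, and all 10 were of the same age. Avilamycin is an antibiotic against Gram-positive bacteria and was long added to broiler feed to promote growth. The labels used here state no dose, strain, pen or sex. The series asks how such a feed additive relates to gene expression in the gut of the host. Library totals ran from 14079936 to 26708365 counts.

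In birds the female carries the unlike pair of sex chromosomes, Z and W, and the male carries a pair of Z. The W chromosome is small and rich in repeats, and most of the protein-coding genes left on it have a related copy on Z. Genes of W can be transcribed only in hens, and many of them are known to be active in most tissues of the body. The set was likened to such genes because it is either read or not read in a bird. The deposited table pairs the IDs with no symbol, and the reference table used here (assembly GRCg7b) gives an Ensembl ID for 0 of 25635 genes. None of the 39 members (0 of 39) was therefore given a symbol, a chromosome or a function, and no sequence is shown. Whether the members lie on W, and whether the 4 birds are hens, was not tested. For scale, that assembly lists 170 genes on W, 109 of them protein-coding, and 1492 on Z.

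Among genes that met the CPM limit, a gap in the ratio parted the members from the rest. The scarcest members lay near the limits. Of 14936 genes with at least 0.2 CPM in each of the 4 birds, 39 met the ratio, which is 0.261%. The weakest member, ENSGALG00000053407, had a ratio of 7.84 between the lowest of the 4 birds (0.252 CPM) and the highest of the 6 (0.0321 CPM). Next inside the limit came ENSGALG00000053841 with a ratio of 9.12 and ENSGALG00000052920 with 9.95. The nearest genes outside had far smaller ratios, 1.51 for ENSGALG00000003726, 1.46 for ENSGALG00000002358 and 1.42 for ENSGALG00000015053. No gene with at least 0.2 CPM in each of the 4 birds thus lay between 1.51 and 7.84. Genes under that limit are described further below. These neighbours are scarce members on the inside and moderately read genes on the outside, and the 3 outside genes were read in all 10 birds, with at least 1.02 CPM in each of the 6. ENSGALG00000003726 had at least 10.3 CPM in the 4 birds, while the 6 had 2.67 to 6.78 CPM.

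**Figure D1:**
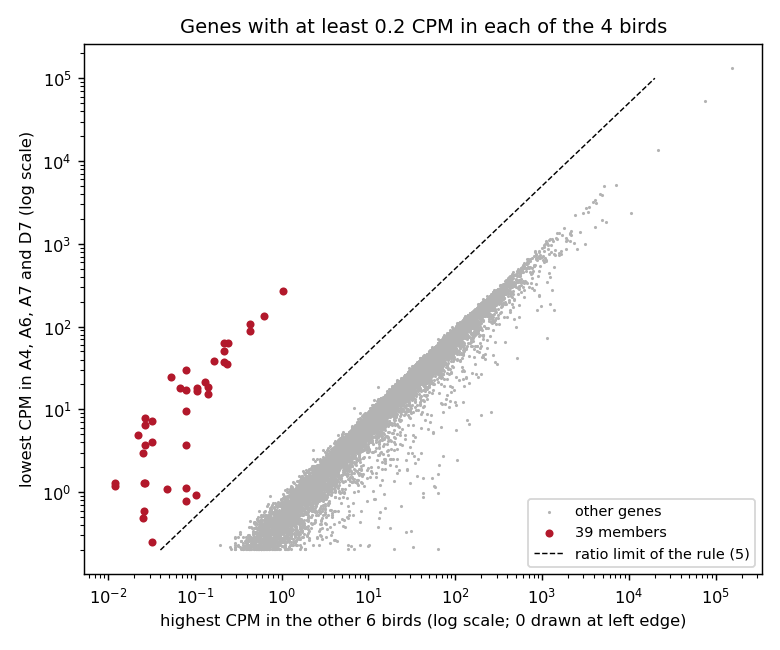
Each point is 1 of 14936 genes with at least 0.2 CPM in birds A4, A6, A7 and D7, with the highest CPM of the other 6 birds on the x axis and the lowest CPM of these 4 on the y axis, both on log scales. The 39 members (red) lie above the dashed limit of 5 with ratios of 7.84 or more, and the nearest other gene (grey) has a ratio of 1.51.

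Together the 39 genes took a small and nearly constant part of the reads of the 4 birds. Their summed level was 1243 CPM in control bird A4 (95% exact binomial interval 1232 to 1255), 1197 CPM in control bird A6 (1187 to 1208), 1175 CPM in control bird A7 (1165 to 1186) and 1206 CPM in avilamycin bird D7 (1196 to 1216). The mean was 1205 ± 28.2 CPM (SD, n = 4), or between 0.118% and 0.124% of all counts of a bird. In the other 6 birds the summed level was 1.93 CPM in A3, 2.11 in A5, 4.22 in D2, 4.67 in D3, 2.02 in D4 and 1.80 in D5. These 6 values correspond to 0.149% to 0.388% of the mean of the 4 birds. The sets of birds do not overlap, as the rule demands. Intervals here and below treat reads as independent and leave out the spread between birds. Reads without molecular identifiers are not independent molecules, so the intervals can be too narrow even for counting error. In pieces of bulk tissue, fewer cells of a type and less RNA per cell cannot be told apart.

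The technical libraries gave the same picture one by one. In the 8 libraries of the 4 birds the summed level ran from 1171 CPM (second library of A7) to 1256 CPM (first library of A4). The first library was 0.999 to 1.02 times the second in these birds. In the 12 libraries of the other 6 birds it ran from 1.66 to 6.29 CPM. The first libraries of D2 and D3 were the highest of these 12, at 5.70 CPM and 6.29 CPM, while their second libraries had 2.33 and 2.54 CPM. The remaining 8 libraries, those of A3, A5, D4 and D5, lay between 1.66 and 2.29 CPM.

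**Figure D2:**
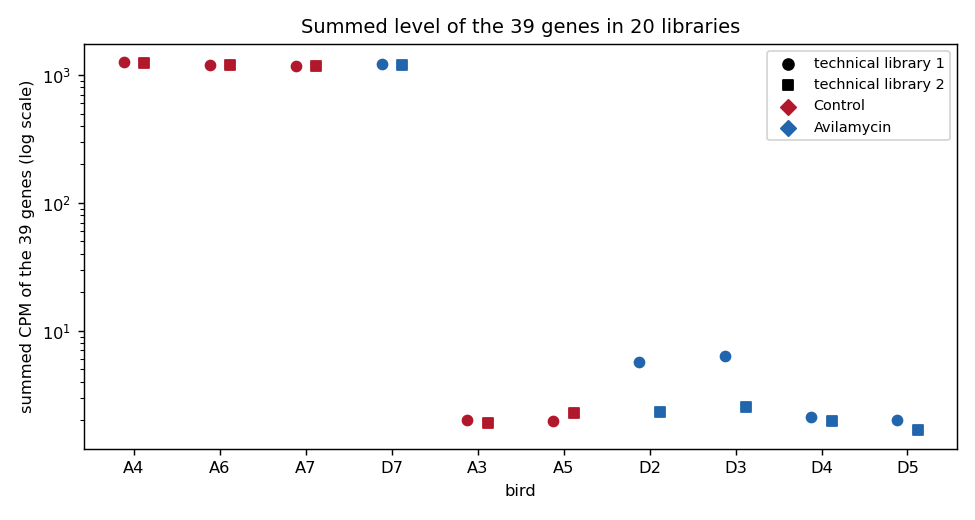
The summed CPM of the 39 genes is shown on a log scale for the 20 libraries, by bird, with circles and squares for the technical libraries and colour for the feed group. The 8 libraries of A4, A6, A7 and D7 lie between 1171 and 1256 CPM, the first libraries of D2 and D3 at 5.70 and 6.29 CPM, and the remaining 10 between 1.66 and 2.54 CPM.

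A few members made up most of the reads. The counts are not corrected for transcript length, so the order below ranks reads and not transcripts. ENSGALG00000035998 had the most reads, with 267 CPM in A4, 292 in A6, 267 in A7 and 270 in D7. In the other 6 birds it had 0.418 CPM in A3, 0.339 in A5, 1.03 in D2, 0.906 in D3, 0.556 in D4 and 0.609 in D5. This gene alone held 21.4% to 24.4% of the member reads of the 4 birds, and its highest value in the 6 birds was 1.03 CPM, in D2.

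ENSGALG00000039023 followed with 152, 152, 134 and 148 CPM in A4, A6, A7 and D7, and at most 0.620 CPM in the 6 birds. ENSGALG00000043758 had 131, 108, 127 and 123 CPM in the same order, and at most 0.429 CPM in the 6. ENSGALG00000051419 had 97.5, 89.7, 97.3 and 100 CPM, and likewise at most 0.429 CPM. These 4 genes together held 52.0% to 53.6% of the member reads in each of the 4 birds, so the makeup of the set was alike in all of them. ENSGALG00000033705 came next, with 66.3, 66.1, 63.3 and 64.9 CPM, and at most 0.239 CPM in the 6. Its values differ least among the 4 birds of all members, with a coefficient of variation (SD as a percent of the mean) of 2.17%. ENSGALG00000048286 was the second steadiest at 2.54%, with 64.2, 66.7, 64.8 and 62.7 CPM.

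By level, 19 members had a mean of at least 10 CPM in the 4 birds, from 16.6 to 274 CPM. They held 94.3% of the member reads, and their lowest value in the 4 birds was 107 to 468 times the highest in the 6. The largest ratios were those of ENSGALG00000048542 (468) and ENSGALG00000040780 (380). They also rest on few counts, since the highest of the 6 birds, D2, held 2 counts of the former and 3 of the latter. Their ratios of pooled CPM were 613 (95% interval 333 to 1280) and 630 (360 to 1220), so their order is not established. ENSGALG00000048542 had 24.6, 25.5, 27.1 and 27.4 CPM in A4, A6, A7 and D7 against 10 counts in the 6 birds together. A further 17 members had 1.04 to 9.87 CPM and held 5.52% of the reads, and 3 had 0.415 to 0.837 CPM. The ratios of these scarce members rest on few counts as well. For ENSGALG00000041221, the 6 birds held 1 count, and the ratio of pooled CPM was 1240 with a 95% interval of 221 to 48900.

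**Figure D3:**
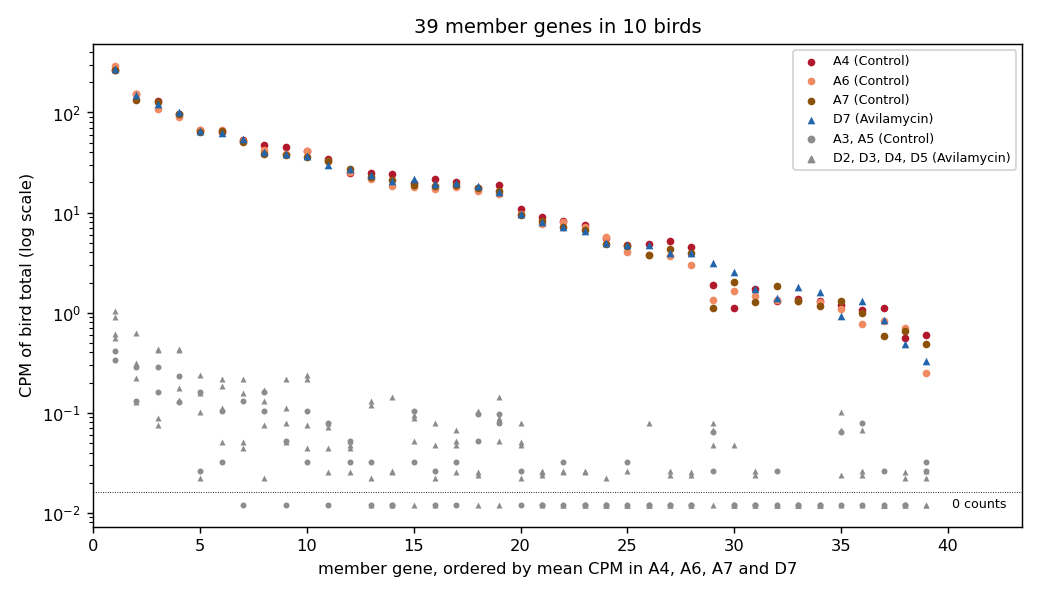
The 39 members are ordered on the x axis by their mean CPM in A4, A6, A7 and D7, with CPM in each of the 10 birds on a log y axis, circles for control and triangles for avilamycin, and values of 0 counts drawn below the dotted line. Coloured points (the 4 birds) run from 292 CPM down to 0.252 CPM and lie above the grey points (the other 6 birds) of the same gene throughout, with the grey points at 1.03 CPM or less.

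Under the CPM limit, 2496 genes had counts in each of the 4 birds and a lowest value there of less than 0.2 CPM. In 13 of them (0.521%) the listed values met the ratio, but 12 of the 13 had 0 counts in all 6 birds. Their lowest values, 0.022 to 0.178 CPM, are under 5 times the limit that a count of 0 allows in a bird. The ratio, taken bird by bird, is therefore not established at this depth. The same holds for the member ENSGALG00000053407, with a lowest value of 0.252 CPM. The limit from counts pooled over the 6 birds, used below for members with 0 counts, was not applied to these genes. In the reverse direction the ratio was met by 1 of 2287 genes (0.0437%), and there too the values are sparse. The 13 genes are not members, and their counts over the 4 birds ran from 7 to 141. ENSGALG00000049534 had the most, and was singled out after its values were seen. It had 0.536 CPM in A4, 1.33 in A6, 1.48 in A7 and 0.132 in D7, so that D7 alone kept it under the limit. The reverse pattern at the same limits, high in the 6 birds and low in the 4, was met by 0 of 14760 genes with at least 0.2 CPM in each of the 6.

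With any 1 bird left out, the rule chose 39 to 41 genes. The rule was applied 10 times, each time to 9 birds, and the bird left out was then read. Each bird had already been labelled high or low from these counts, so its overall level was known. Leaving a bird out only loosens the rule, so the 39 members were bound to be chosen again. They were also bound to keep the pattern in that bird, and any further gene to break it. Only the number of further genes and the levels could vary. Without A4 the rule chose the same 39 genes, and A4 had 1243 CPM of them against a mean of 1193 CPM in the other 3 high birds. Without A7 it again chose the 39, which had 1175 CPM in A7 against 1215 CPM. Without A6 it chose 41 genes, the 39 members and 2 others, and 39 of the 41 kept the pattern in A6. Without D7, the only high bird of the avilamycin group, it also chose 41, and 39 kept the pattern in D7, which had 1206 CPM against 1207 CPM in A4, A6 and A7. In the median gene D7 had 99.4% of the mean of the other 3, with a range over the 41 genes of 11.9% to 218%. Without any 1 of the 6 low birds the choice was the same 39 genes, so no further gene was added. The bird left out had 1.80 to 4.67 CPM of them in all.

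Technical libraries could also be set against each other. Both come from the same birds, and the high birds and the members were chosen on their sum. Agreement was thus largely built in, and it describes the repeatability of the libraries only. The rule applied to the first libraries alone chose all 39 members, and 37 of them met it in the second libraries. The 2 that missed were ENSGALG00000053407 and ENSGALG00000053841, both among the 3 members nearest the limit. Applied to the second libraries alone the rule chose 38 genes, of which 37 were members. The remaining gene, ENSGALG00000049069, did not meet the rule in the first libraries.

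Among the 4 birds the members varied little. The correlation of log2 CPM over the 39 genes lay between 0.991 and 0.995 for the 6 pairs of these birds. It is a description over genes, which share libraries and differ widely in level. For members with at least 10 CPM the median coefficient of variation was 5.82%, with a range of 2.17% to 11.4%. The 9192 other genes of that level had a median of 9.88%, with quartiles of 6.31% and 15.6%. At 1 to 10 CPM the median was 14.1% for 17 members and 19.8% for 4180 other genes. Under 1 CPM it was 25.1% for 3 members and 31.0% for 1525 others. The rule asks for a high lowest value in these birds, which favours steady genes among scarce ones, so the difference was not tested.

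The scarce members included the most variable ones. ENSGALG00000049219 had the largest coefficient of variation, 48.8%, with 1.89 CPM in A4, 1.33 in A6, 1.12 in A7 and 3.15 in D7. ENSGALG00000053407 followed at 36.8%, with 0.592, 0.252, 0.484 and 0.331 CPM. In the first gene D7 is the high bird, and in the second A6 is the low one. ENSGALG00000046789 reached 33.8%, with 1.10, 1.63, 2.04 and 2.56 CPM, and it was named after its values were seen.

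**Figure D4:**
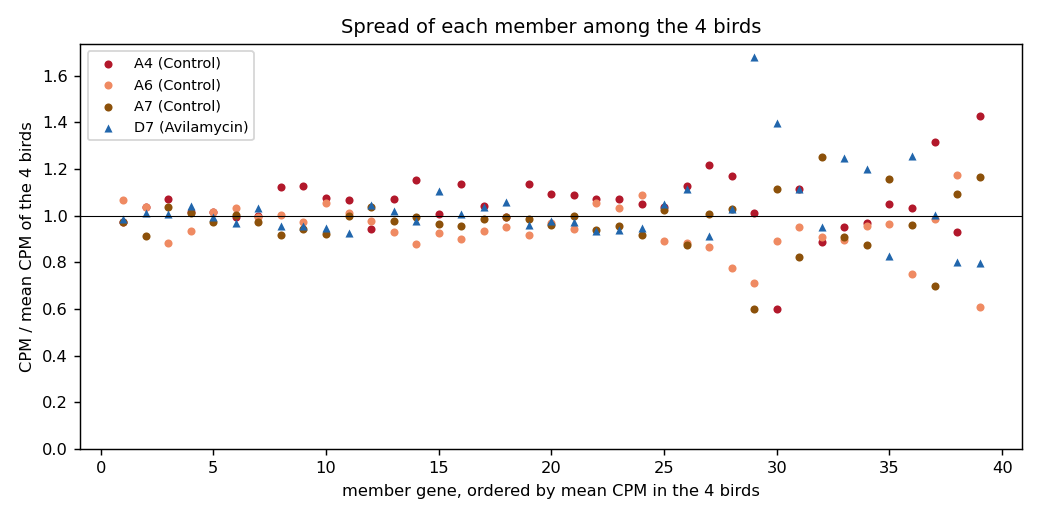
For each of the 39 members, ordered by level on the x axis, the y axis gives the CPM of A4, A6, A7 (circles, control) and D7 (triangles, avilamycin) divided by the mean of these 4 birds. The abundant members on the left stay close to 1, and the widest spread is at ENSGALG00000049219, with 3.15 CPM in D7 and 1.12 CPM in A7.

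The division of the birds ran across the feed groups. Among control birds 3 of 5 had the set at full level and among avilamycin birds 1 of 5 did. The mean summed level was 724 ± 660 CPM in control birds (SD, n = 5) and 244 ± 538 CPM in avilamycin birds (SD, n = 5). The SD was close to the mean in the control group and exceeded it in the avilamycin group. Control birds ran from 1.93 to 1243 CPM and avilamycin birds from 1.80 to 1206 CPM, so the groups overlap over nearly the whole range. These group means rest on how many birds of a group had the set at full level.

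In the comparison of feed groups no gene passed the threshold. With genes of at least 0.2 CPM in at least 4 birds, 16171 genes were tested by edgeR's quasi-likelihood test with Benjamini-Hochberg adjustment. Of these, 0 (0.0%) had an adjusted p under 0.05, limma voom also called 0 and DESeq2 called 214. At an unadjusted p under 0.05 there were 1756 genes, which is 10.9%. Of the 39 members 0 were called by any of the 3 tools and 0 had an unadjusted p under 0.05. Their adjusted p in edgeR lay between 0.576 and 0.945. All 39 had a negative log2 fold change (lower in avilamycin birds). In edgeR its median was -1.52 (range -1.78 to -0.36), beside 0.00 over all genes tested. The median over the members was -1.54 in DESeq2 and -3.17 in limma voom, so its size depended on the tool. The choice of 3 control birds and 1 avilamycin bird as high strongly favours the negative direction. It does not fix the sign of every member, since the rule sets no upper limit for D7. The direction is not read as a result about feed. The same choice puts high and low birds in both groups, which widens the spread within them. The 0 calls among members are therefore not read as a result about feed. The SE of the edgeR log2 fold changes ran from 1.05 to 1.88, with a median of 1.59.

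For ENSGALG00000035998 the control mean was 165 ± 151 CPM and the avilamycin mean 54.6 ± 120 CPM (SD, n = 5 each). The fitted log2 fold change of this gene was -1.56 ± 1.88 (SE), with an edgeR adjusted p of 0.809. These values turned on D7. Without D7 in the avilamycin group 9 members passed the filter on low counts, and their median log2 fold change was -8.02. In edgeR all 9 had an unadjusted p under 0.05 (lowest 0.00177) and an adjusted p of at least 0.399. That contrast of 3 high control birds with no high avilamycin bird restates the choice of birds, so nothing is read from it.

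Among the 4 birds with the set at full level, the avilamycin bird was set beside the 3 control birds. With 1 avilamycin bird the difference has no replicate check and no test was made. Of the 39 members, 22 had a value in D7 within the range of A4, A6 and A7. D7 was above all 3 control birds for 11 members (28.2%) and below them for 6 (15.4%). Over all 14936 genes with at least 0.2 CPM in the 4 birds, D7 was above for 23.1% and below for 35.0%. With CPM on the TMM scale, which corrects totals for the makeup of a library, the members numbered 15 above and 4 below, beside 28.3% and 30.5% of all genes. With the first libraries alone 9 members were above and 5 below, and with the second libraries alone 8 and 8. The shares of all genes are not given for single libraries. The median log2 difference between D7 and the mean of the 3 control birds was 0.00 for the members and -0.05 for all genes.

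Members for which D7 lay farthest outside the control range, as a ratio to the nearest control bird, were scarce. D7 was farthest above for ENSGALG00000049219, whose values are given above, at 1.67 times the highest control bird. ENSGALG00000054870 followed at 1.31 times. It had 1.38, 1.30 and 1.32 CPM in A4, A6 and A7 and 1.81 CPM in D7. This gene had 0 counts in the other 6 birds, as did ENSGALG00000054907. Against 3 counts over the 6 birds, pooled CPM in the 4 birds was at least 114-fold higher for the former and at least 105-fold higher for the latter. D7 was farthest below for ENSGALG00000051422 and ENSGALG00000053841, at 0.860 times the lowest control bird in both. The former had 0.564, 0.71 and 0.662 CPM in the control birds and 0.485 CPM in D7. For the latter the values were 1.18, 1.08 and 1.30 CPM against 0.926 CPM. Both rest on few counts. The former had 20, 31 and 26 counts in A4, A6 and A7 and 22 in D7. The latter had 42, 47 and 51 counts and 42 in D7. Whether D7 lies below the control birds in these 2 genes is therefore not established.

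Which of the 4 birds was most often the highest depended on the scaling. By bird totals A4 was highest for 22 of 39 members (56.4%), beside 34.3% of all 14936 genes, and D7 for 11. On the TMM scale D7 was highest for 15 members (38.5%), beside 28.3% of all genes, and A4 for 12 (30.8%), beside 23.5%. DESeq2 size factors also gave 15 for D7 and 12 for A4. A6 was the lowest of the 4 for 16 members (41.0%) on both scales, beside 27.9% of all genes by bird totals and 27.7% on the TMM scale.

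Traces of the set were present in all 6 low birds. Member counts were 60 in A3, 81 in A5, 160 in D2, 196 in D3, 91 in D4 and 71 in D5. Between 19 and 30 of the 39 members had at least 1 count in such a bird, and a count of 0 allows up to 0.0667 to 0.0964 CPM (3 counts of the bird's total). The traces followed the level of the members in the 4 birds. The same 4 abundant genes held 46.9% to 54.9% of the member counts in the low birds, beside 52.0% to 53.6% in the high ones. Across the 39 genes, Pearson's correlation between the CPM of a low bird and the mean CPM of the 4 birds was 0.868 to 0.979, and Spearman's was 0.532 to 0.867. The highest values of both were those of D3, which also had the most counts. These correlations are descriptions over genes that share libraries.

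As a share of its level in the 4 birds, pooled CPM in the 6 birds was 0.157% to 0.466% for the 19 members with at least 10 CPM, with a median of 0.201%. For 34 of the 39 members it was at most 0.554%. The other 5 had shares of 1.42% to 4.25%, on 35 counts in all. They were ENSGALG00000051422, ENSGALG00000049219, ENSGALG00000052920, ENSGALG00000053841 and ENSGALG00000053407, a division made after the values were seen. All 5 were scarce in the 4 birds, and 3 of them were the members nearest the limit of the rule. ENSGALG00000049219 had 11 counts in the 6 birds and a ratio of pooled CPM of 40.5, with a 95% interval of 22.3 to 81.9.

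The traces differed between the libraries of D2 and D3. The first library of D2 had 121 member counts and the second 39, a ratio of 2.44 in CPM. In D3 the first library had 150 and the second 46, a ratio of 2.48. In A3, A5, D4 and D5 this ratio lay between 0.859 and 1.20. How reads of the set came into the libraries of the low birds was not tested.

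**Figure D5:**
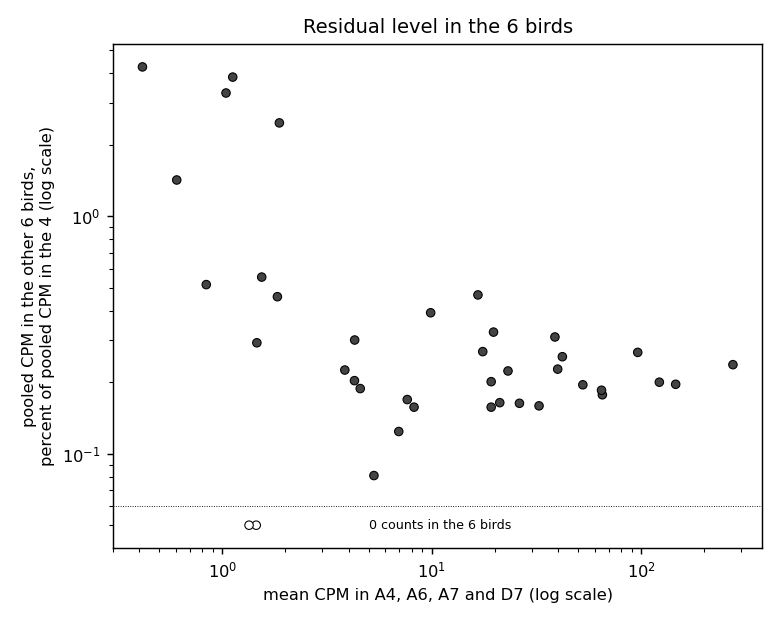
Each of the 39 members is placed by its mean CPM in A4, A6, A7 and D7 on the x axis and by its pooled CPM in the other 6 birds as a percent of the pooled CPM in the 4 on the y axis, both on log scales, with open points for the 2 members without counts in the 6. Members with at least 10 CPM lie between 0.157% and 0.466%, and the 5 members above 1% are scarce ones.

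Within the 4 high birds, the technical libraries of a bird showed no common shift of the members, but single members differed between them. Members with at least 20 counts in a bird numbered 38 or 39. The difference between the libraries of a bird gave a median chi-square of 1.38 to 1.75 per member. It was 1.19 to 1.61 over the other genes with at least 20 counts in the bird, and in each bird the median was higher for the members. The other genes were not matched to the members by count, so this difference is not read further. The mean chi-square was 2.58 to 3.08 for the members and 4.18 to 7.14 for the others, and pure sampling gives a mean of 1. Members varied between libraries by more than sampling noise, and their median log2 ratio of the second to the first library was 0.00 to 0.08. For single members this log2 ratio ran from -1.65 (in D7) to 1.06 (in A4). Between 19 and 24 of them were higher in the second library, so no bird had a shift of the whole set.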

How the data were processed

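The deposited values are raw counts of reads per Ensembl gene ID in 20 libraries, and every line names a gene. Another deposited file was identical to this table and was not used. Tools listed in the submitters' processing notes, without their roles, are STAR, DESeq2, HTSeq 0.6.1, SAMtools 1.7 and Trimmomatic 0.36. The notes give the build galGal5 whereas the count table is named for GRCg6a, so no coordinates are given. Use of strand in counting, and the treatment of reads shared by near-identical copies, are not stated in the labels. Values of members with a close copy elsewhere in the genome are therefore uncertain.

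Counts of a bird's 2 libraries were summed, and the bird was the replicate. Members and lists were chosen with earlier results of these data known. Feed groups were compared over all genes with edgeR 4.0.16 (quasi-likelihood, TMM, Benjamini-Hochberg, threshold 0.05) in R 4.3.3, on genes with at least 0.2 CPM in 4 birds, since edgeR's own filter kept only 4 of the 39. DESeq2 1.42.0 and limma 3.58.1 were alternatives. SEs were derived from the F statistic. The labels do not say whether birds shared a pen, so p-values measure the spread between these birds. The planned marker lists need gene symbols and were not used. Named members were, by rule, the extremes of level, ratio, variation, D7 position and residual counts, and the neighbours of the limit.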

Additional observations from a re-analysis of the deposited data

Results flagged for a closer look

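In the avilamycin group D7 stood apart in the summed level of the set. The gap from D7 to the next bird was 0.998 of the range of the group. The same held for 39 of 39 members taken singly, which follows from the rule, since D7 is the only avilamycin bird it names as high.

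Among the 4 high birds, 5 of 39 members had 1 bird apart from the other 3. About 1 in 20 such sets would be marked by chance, and the 4 birds are a choice from these data and not a group of the study. The share of other genes marked in this way is not given, so whether 5 of 39 is unusual was not tested. A4 was the high bird for ENSGALG00000034488 (gap of 0.838 of the range, 44.9 CPM beside 37.6 to 38.8) and for ENSGALG00000034905 (0.859, 10.8 CPM beside 9.47 to 9.65). A6 was the high bird for ENSGALG00000035998 (0.872, 292 CPM beside 267 to 270) and the low bird for ENSGALG00000048307 (0.830, 4.05 CPM beside 4.66 to 4.78). D7 was the high bird for ENSGALG00000054870 (0.848, 1.81 CPM beside 1.30 to 1.38).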

How the results depend on the processing

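The number of members was 34 to 44 over all limits, scalings and libraries tried, and 39 to 41 with each bird left out, against 39. Leaving out a bird cannot give fewer than 39. The mean summed level in the 4 birds moved by less than the spread between birds with other scalings and single libraries, and was 931 CPM without the most abundant member. Called genes between feed groups numbered 0 with edgeR's own filter, no filter, DESeq2 size factors in edgeR, voom and the first libraries alone. They numbered 2 with the second libraries alone, 214 in DESeq2, and 0 to 3 without 1 bird (2 without A3, 3 without D2, 1 without D4). No member was called in any of these fits, which is not read as a result about feed, for the reason given above. With the second libraries alone 1 of 38 members had an unadjusted p under 0.05 in edgeR (0.0254). Without D7 all 9 members tested did, as given above. However, only 4 members passed edgeR's own filter, only 9 passed the filter without A4, A6, A7 or D7, and DESeq2 gave no adjusted p for 2. The filter asks for at least 0.2 CPM in 4 birds. Without 1 of the 4 high birds, a member therefore passed only where a low bird also reached that level. The filter of edgeR asks for still more birds, so there too a member needed counts in a low bird. Why DESeq2 gave no adjusted p for 2 members, and why the numbers of called genes differed, was not tested. The groups share the bird numbers 3, 4, 5 and 7, and not every pair with the same number deviated together (correlations of -0.163 to 0.253). With the bird number as a replicate block in these 8 birds 0 genes were called, with 1362 at an unadjusted p under 0.05. Without the block also 0 were called, with 1546. Only 9 members were tested in each of these fits of 8 birds. Single members under 1 CPM rest on few counts, which limits their ratios.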
